A study of Homo sapiens with 12 samples.

Results

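H/ACA small nucleolar RNAs (SNORA) and small Cajal body RNAs (SCARNA) crosslinked to the demethylase FTO in HEK293T cells, a human embryonic kidney line, are described here, with the few of them that also carried a site of the tRNA methyltransferase TRMT10A. Members were all genes whose symbol starts with SNORA or SCARNA followed by a number. They accounted for 134 of the 9579 distinct clusters in the FTO list (1.4%) under 74 names. FTO CLIP-seq was made once, from cells overexpressing FTO. TRMT10A CLIP-seq had 3 samples, from cells overexpressing TRMT10A, which the authors pooled into 1 list of sites. In both CLIP experiments the cells were irradiated with ultraviolet light, RNA was trimmed with RNase T1, and the Flag-tagged protein was pulled down with the RNA bound to it. For m6A-seq, cells received TRMT10A siRNA (siTRMT10A) or control siRNA (siCtrl), and polyadenylated RNA was sequenced as antibody pulldown and as input, with 2 samples in each of the 4 groups. None of the 3 deposited tables gives values for single replicates, and read depth is unknown. Intervals below are therefore 95% intervals for counting error only, or for the spread of clusters around a median. Conversion events are not independent molecules, and clusters on the same RNA are not independent of each other.

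H/ACA RNAs fold into hairpins joined by a hinge that carries box H and end in an ACA trinucleotide, and they guide the conversion of uridine to pseudouridine in ribosomal RNA. Box C/D RNAs, the other large class of small nucleolar RNA, guide methylation of the ribose. Small Cajal body RNAs use the same boxes, H/ACA, C/D or both in 1 molecule, and guide modification of spliceosomal RNAs in Cajal bodies. Most of these RNAs are cut from introns of host genes, and some of them are further cut into microRNAs.

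The annotated microRNA hairpins that overlap members show which stretches the clusters covered, since these are the members' bases for which sequence was used here. Of 7 members with an overlapping hairpin, 4 had an FTO cluster, beside 74 of all 211 members (35.1%), and 7 are too few to compare. In 2 of the 4, clusters lay on the hairpin itself. SNORA2C overlaps MIR1291 (chr12:48654444-48654530, minus strand, hg38) and SNORA81 overlaps MIR1248 (chr3:186786672-186786777, plus strand). Both hairpins start before the annotated 5′ end of the RNA, at bases -11 to 75 of SNORA2C and -3 to 102 of SNORA81. Base 30, inside both stretches, lay in a cluster in 36 of the 49 SNORA RNAs of at most 154 bases (73.5%). RefSeq sequences of GRCh38.p14 are printed 5′ to 3′, with the bases inside FTO clusters in capitals, and the mature microRNAs with the seed (bases 2 to 8) in capitals.

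MIR1291 hairpin: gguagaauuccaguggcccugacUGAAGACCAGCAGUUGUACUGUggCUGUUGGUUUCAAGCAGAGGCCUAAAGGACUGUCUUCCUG

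MIR1248 hairpin: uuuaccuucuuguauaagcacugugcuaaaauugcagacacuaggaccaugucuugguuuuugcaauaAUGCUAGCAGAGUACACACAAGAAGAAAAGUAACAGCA

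hsa-miR-1291: uGGCCCUGacugaagaccagcagu

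hsa-miR-1248: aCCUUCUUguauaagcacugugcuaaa

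In MIR1291, 62 of 87 bases lay inside the 2 clusters of SNORA2C, including 14 of the 24 bases of mature miR-1291 but none of its seed. In MIR1248, 38 of 106 bases lay in the single cluster of SNORA81, all toward its 3′ end, and the mature miR-1248 was 38 bases away from it. The hairpin of MIR664A, which overlaps SNORA36B, was 20 bases from that RNA's cluster. The hairpin of MIR6516, which overlaps SCARNA16, was 60 bases from the cluster of SCARNA16. The 2 clusters of SNORA2C carried 37 and 41 conversion events, against 2 events in the cluster of SNORA81. The FTO list does not say whether its starts count from 0 or from 1. They were read as counting from 1, so capitals could be off by 1 base.

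The gene table used here holds 211 genes of the rule, 182 SNORA and 29 SCARNA. FTO clusters were listed for 74 of the 211 (35.1%), beside 6.01% of all genes in the table and 37.3% of SNORD genes, which encode box C/D RNAs. The share among members was thus close to that of SNORD genes. Clusters could be placed on 73 RNAs, 57 SNORA and 16 SCARNA. The remaining name, SNORA11D, shares its only cluster with SNORA11E, and that cluster lies on SNORA11E. No cluster was listed under the other 137 names. A further 14 clusters with 2 to 19 events lay on 8 RNAs of the same kind but were listed only under another gene, most often the host, such as SNORA7A under RPL32 and SNORA77B under RANBP1. The sources used here do not state the strand of these 8 RNAs, so they were not counted.

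Conversion events, the base changes that the authors counted in the reads of each cluster, summed to 1497 on the 73 RNAs, or 0.187% of all events in the FTO list. A cluster held a median of 5 events (range 2 to 203), against 3 over all clusters of the list, and 31 of the 134 clusters (23.1%) held the minimum of 2. The RNAs were unequal. The 3 with the most events held 36% of the total and the 20 with the most held 75.4%, whereas 24 of the 73 had at most 4 events. The median RNA had 8.

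**Figure D1:**
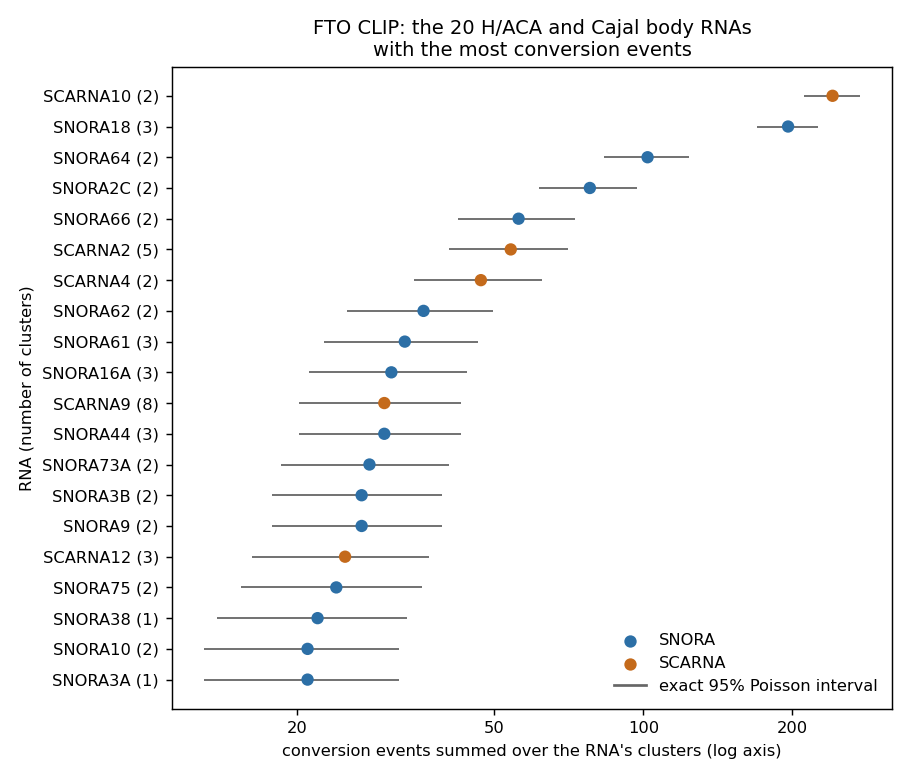
Conversion events summed over the FTO clusters of each RNA, on a log axis, for the 20 H/ACA and Cajal body RNAs with the most events in 1 FTO CLIP library. Points are sums, lines are exact 95% Poisson intervals, and numbers in brackets are clusters. SCARNA10 with 241 and SNORA18 with 196 stand above the others, and the intervals of the lower 12 overlap widely.

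SCARNA10 (U85), which guides both kinds of modification of the U5 spliceosomal RNA, carried the most events of any member, 241 (interval 211.5 to 273.4). Of these, 203 fell in a cluster of 23 bases over bases 4 to 26 of its 330 bases (chr12:6510225-6510247, plus strand), and 38 in a cluster over bases 274 to 319. SNORA18, a box H/ACA RNA of 132 bases, followed with 196 events (169.5 to 225.4), an interval that overlaps that of SCARNA10. Its clusters held 68 events at the 5′ end, from just before the annotated start to base 12, then 120 over bases 15 to 44 (chr11:93733554-93733583, minus strand) and 8 over bases 69 to 110. Events on both RNAs were therefore concentrated in the first 44 bases. SNORA64 (U64) had 102 events (83.2 to 123.8), of which 91 fell in the widest cluster of the set, 113 bases that cover most of the RNA.

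SNORA2C followed with 78 events and SNORA66 (U66) with 56, all of them in clusters centred on the 5′ side of the midpoint. SCARNA2, which guides methylation of the U2 spliceosomal RNA and has a transcription unit of its own, had 54 events in 5 clusters. SCARNA4 had 47, SNORA62 (E2) had 36, SNORA61 had 33, SNORA16A had 31 and SNORA44 had 30. The intervals of the last 4, all between 20.2 and 49.8, overlapped, so their order is not settled. SCARNA9, another guide for U2, had 30 events in 8 clusters, more clusters than any other member, and no cluster of it exceeded 6 events. SNORA73A (U17), which acts in the processing of pre-ribosomal RNA rather than as a modification guide, had 28 events in 2 clusters. Between 21 and 27 events were summed on SNORA3B, SNORA9, SCARNA12, SNORA75, SNORA38, SNORA10 and SNORA3A. Other RNAs had many weak clusters: SNORA20, SNORA23 and SNORA53 had 4 clusters each and 14, 19 and 18 events.

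Clusters lay toward the 5′ end of the RNA. With the annotated 5′ end at 0 and the 3′ end at 1, the median centre of the 134 clusters was at 0.27 (interval 0.24 to 0.36). The centres of 95 clusters were on the 5′ side of the midpoint and 39 (29.1%, Wilson interval 22.1 to 37.3%) on the 3′ side. With each RNA cut into 10 equal segments from its 5′ end, segments 2 and 3 held 27 and 32 clusters, whereas each of segments 6 to 9 held between 5 and 9. Clusters kept largely to the annotated RNA, and the 17 that reached past an end did so by at most 9 bases at the 5′ end (11 clusters) or 16 bases at the 3′ end (6 clusters). Counted by RNA, 41 of 73 had clusters on the 5′ side only, 8 on the 3′ side only and 24 on both. The 8 were SNORA3A, SNORA8, SNORA48, SNORA63, SNORA67, SNORA74B, SNORA81 and SCARNA6. Of all events, 24.2% (363) fell in clusters centred on the 3′ side. Of these, 91 came from 1 cluster of SNORA64, which spans bases 16 to 128 of 134 and has its centre at 0.53.

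**Figure D2:**
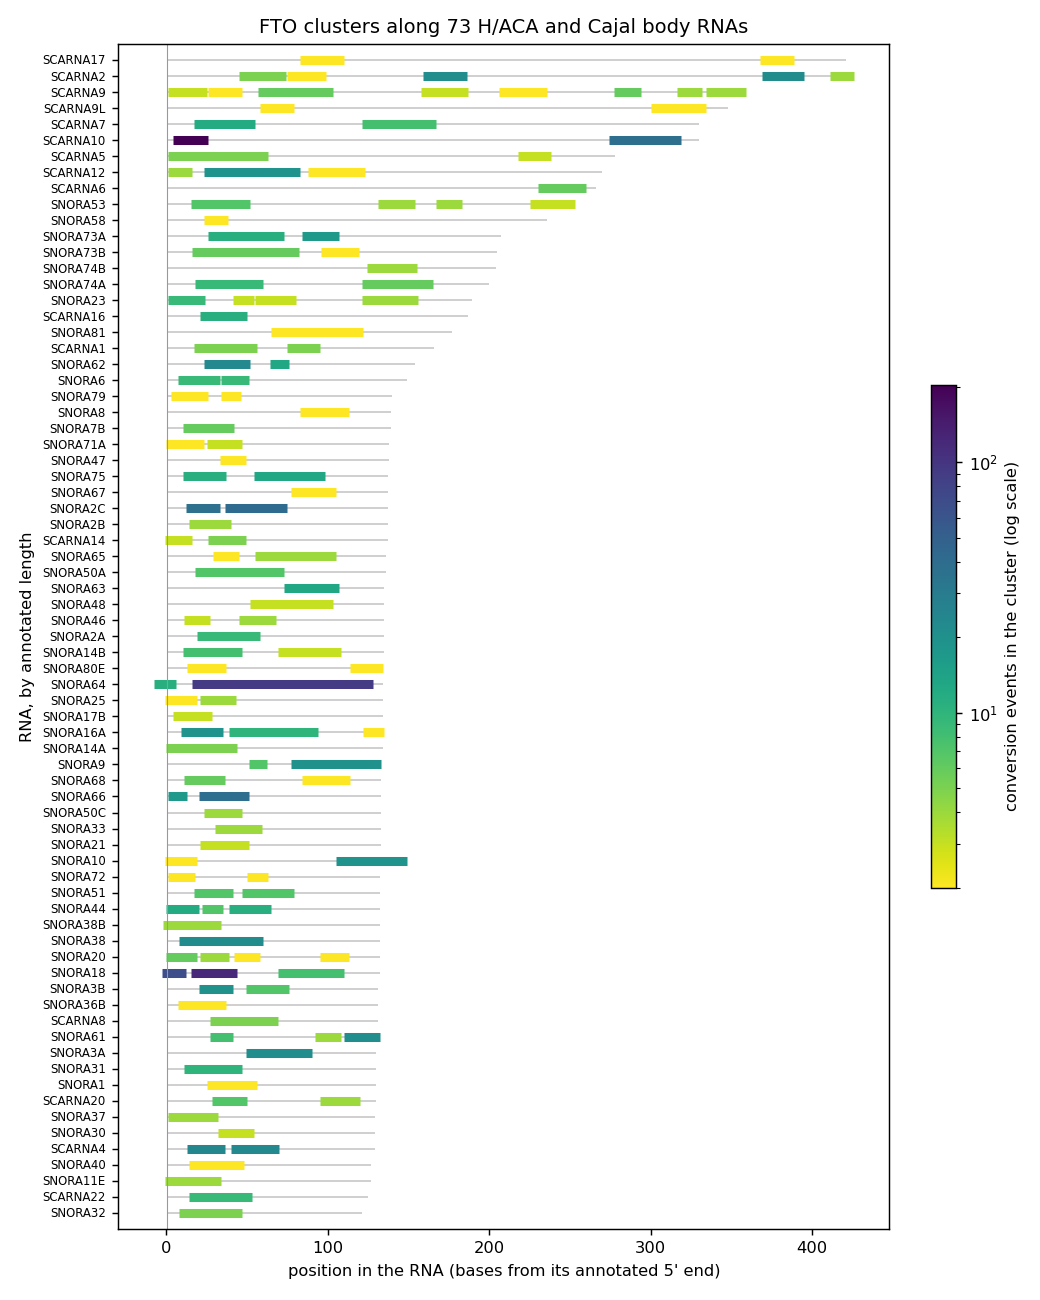
FTO clusters along the 73 H/ACA and Cajal body RNAs, each drawn to scale as a grey line from its annotated 5′ end (base 1) and ordered by length. Coloured bars are clusters, and the colour gives conversion events on a log scale. Most bars lie toward the left end of the lines, and the darkest are those of SCARNA10, SNORA18 and SNORA64.

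The SNORA RNAs of at most 154 bases, which have the usual length of a molecule with 2 hairpins, were 49 RNAs with 79 clusters and a median position of 0.26, and 18 clusters (22.8%, 14.9 to 33.2%) had their centre past the midpoint. Base 30 of the RNA lay in a cluster in 36 of the 49 RNAs (73.5%), base 70 in 13 (26.5%) and base 120 in 5 (10.2%). Coverage was thus highest in the part that forms the 5′ hairpin in such RNAs and lowest next to the 3′ end. Individual RNAs went the other way. The main cluster of SNORA61 held 21 of its 33 events around 0.93, that of SNORA10 held 19 of 21 around 0.95, and that of SNORA9 held 20 of 27 around 0.79. In the 8 longer SNORA RNAs, 17 clusters had a median position of 0.46 (0.24 to 0.68), an interval that includes the value of the shorter ones.

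In SNORD RNAs, 237 clusters on 135 RNAs had a median position of 0.52 (0.45 to 0.56), with 53.2% (46.8 to 59.4%) past the midpoint. In spliceosomal RNAs (RNU and RNVU genes), 111 distinct clusters were listed, of which 72 lay on the RNA they were listed under and 39 did not and were left out. The 72, on 35 RNAs, had a median position of 0.63 (0.50 to 0.65), with 61.1% past the midpoint. These intervals take each cluster as independent, although several often lay on the same RNA, so they do not test a difference between classes. A cluster held a median of 12 events in SNORD RNAs and 30 in spliceosomal RNAs, against 5 in members. Per 100 bases of RNA, the median was 26.2 events in SNORD RNAs, 72.5 in spliceosomal RNAs and 5.84 in members. The classes differ in length, with medians of 78, 145 and 135 bases in the same order, and their abundance was not measured. No test between classes was made, because the clusters come from 1 library and are not replicates.

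**Figure D3:**
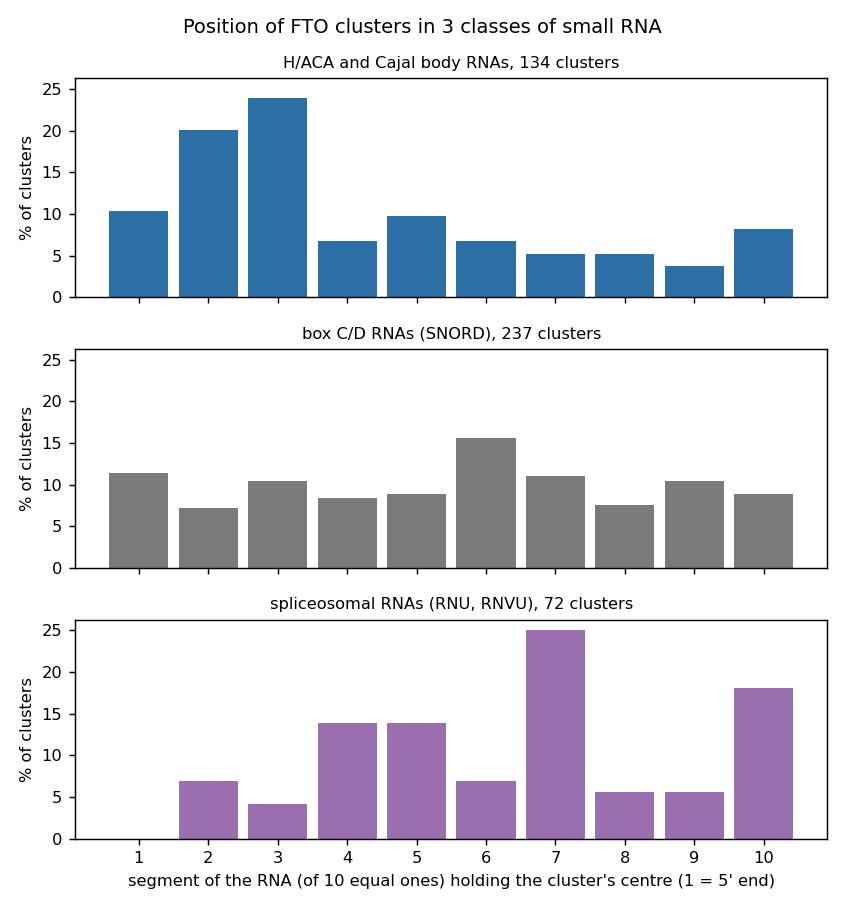
Share of FTO clusters, in percent, by the segment (of 10 equal ones from the 5′ end) that holds the centre of the cluster, in 3 classes of small RNA from 1 library. In H/ACA and Cajal body RNAs segments 2 and 3 hold 20.1% and 23.9% of 134 clusters, in SNORD RNAs no segment exceeds 15.6% of 237 clusters, and in spliceosomal RNAs segments 7 and 10 hold 25% and 18.1% of 72.

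Small Cajal body RNAs had clusters toward both ends and fewest in segments 6 to 8. Their 38 clusters on 16 RNAs had a median position of 0.33 (0.21 to 0.51). Segments 1 to 5 held 4, 8, 7, 2 and 4 clusters. Segments 6 to 8 held 1, 1 and 0, and segments 9 and 10 held 5 and 6. Clusters on both sides of the midpoint were found in 8 of the 16. They were sorted by the boxes they are known to carry. The RNAs with H/ACA boxes alone were SCARNA4 (47 events), SCARNA16 and SCARNA20 (11 each), SCARNA1 (10), SCARNA22 (9), SCARNA14 (8) and SCARNA8 (5), and 2 of their 11 clusters lay past the midpoint. The RNAs with both box types were SCARNA10, SCARNA12 (25 events), SCARNA5 (8) and SCARNA6 (6), and 3 of their 8 clusters lay past the midpoint. SCARNA6 had a single cluster, at 0.92. Those with C/D boxes alone were SCARNA2, SCARNA9, SCARNA7 (20), SCARNA17 (4) and SCARNA9L (4), and 8 of their 19 clusters lay past the midpoint. SCARNA2 carried its largest cluster, of 22 events, at 0.91, next to 21 events at 0.41. The intervals of these 3 shares overlap.

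Several members bear the same number with another letter and are known as copies of one RNA. Their sequences were not compared here, and reads may have been divided between them, so the split of events within a pair is uncertain. Shared positions are given as values only, because base 30 alone was covered in 73.5% of the short SNORA RNAs. The clusters of SNORA73A (28 events) covered 72 bases and those of SNORA73B (8 events) 91 bases, of which 60 were at the same distance from the 5′ end. The clusters of SNORA2C (62 bases) shared 38 positions with the single cluster of SNORA2A (9 events) and 25 with that of SNORA2B (4 events). SNORA38 (22 events) and SNORA38B (4) shared 27 positions, and SNORA50A (7) and SNORA50C (4) shared 25. Among the 8 clusters of SCARNA9, 3 shared positions with clusters of SCARNA9L, as did both clusters of SCARNA9L with those of SCARNA9. The single cluster of SNORA74B (4 events) lay within the positions of the clusters of SNORA74A (15 events), with 32 of 32 bases shared. The SNORA74A cluster over bases 18 to 60, with 9 events, had no counterpart. SNORA3A (21 events) and SNORA3B (27) shared 28 positions, but the SNORA3B cluster over bases 20 to 41, with 20 events, shared none. SNORA14A (5) and SNORA14B (11) shared 35, and the SNORA14B cluster over bases 69 to 108, with 3 events, shared none.

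RNAs cut from introns of the same host transcript differed widely in some hosts. TAF1D, which encodes a subunit of the RNA polymerase I selectivity factor, holds 6 crosslinked members. SNORA18 had 196 events, SNORA25 had 6, SNORA32 had 5, and SNORA1, SNORA8 and SNORA40 had 2 each. The interval of SNORA18, 169.5 to 225.4, lies far above the highest upper bound of the other 5, which is 13.1. In KANSL2, a subunit gene of a histone acetyltransferase complex, SNORA2C had 78 events against 9 and 4 on SNORA2A and SNORA2B. In RPS2, SNORA64 had 102 events (83.2 to 123.8) and SNORA10 had 21 (13 to 32.1). In KHDC4, SCARNA4 had 47 and SNORA80E had 4.

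In several other hosts the intervals of the members overlapped. The noncoding host SNHG12 carries SNORA61, SNORA16A and SNORA44 with 33, 31 and 30 events, and their intervals overlap almost entirely. In RPL27A, SNORA3B had 27 and SNORA3A had 21. CNOT1 had 7 each on SNORA46 and SNORA50A. In RPSA, SNORA62 had 36 and SNORA6 had 18. Overlapping intervals were also found in EIF4A2 (SNORA63 with 13 and SNORA81 with 2) and ATG16L1 (SCARNA5 with 8 and SCARNA6 with 6). The same held in EIF4A1 and the overlapping SENP3-EIF4A1 (SNORA48 with 3 and SNORA67 with 2). In RCC1 and the overlapping SNHG3 the intervals did not overlap, with 28 events on SNORA73A (18.6 to 40.5) and 8 on SNORA73B (3.45 to 15.8). The levels of these RNAs were not measured, so the part of RNA abundance in these differences was not tested.

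**Figure D4:**
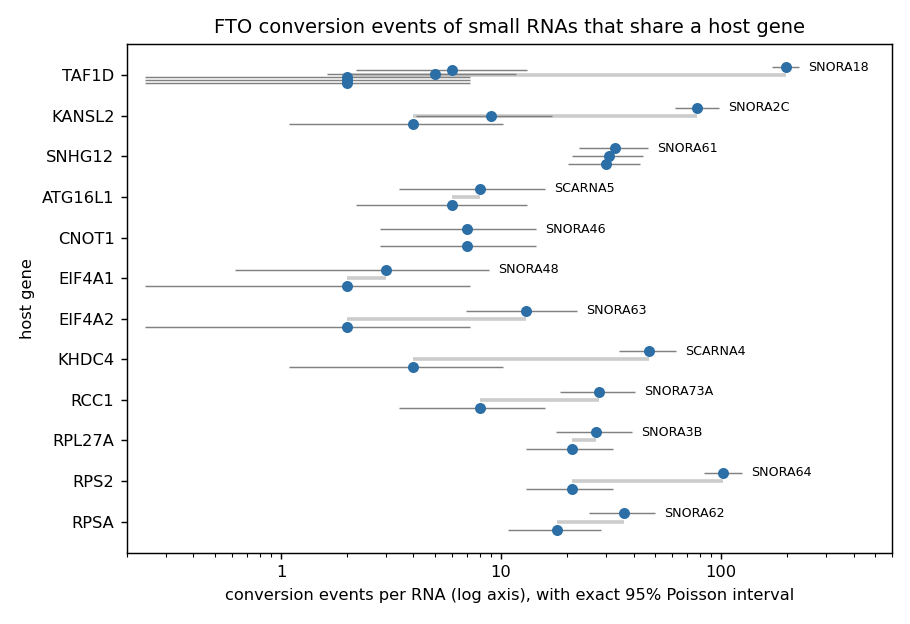
Conversion events per RNA, on a log axis, for members that share a host gene, with SNHG3 drawn under RCC1 and SENP3-EIF4A1 under EIF4A1. Points are sums over the clusters of an RNA, lines are exact 95% Poisson intervals, and the RNA with the most events (the first of equals in CNOT1) is named. The points of TAF1D run from 2 to 196, and those of SNHG12 lie between 30 and 33.

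A host gene on the same strand was found for 68 of the 73 RNAs. The 55 hosts comprised 46 protein-coding genes and 9 long noncoding RNA genes, of which 8 are named as small nucleolar RNA host genes (SNHG), and 14 hosts held more than 1 crosslinked RNA. Ribosomal protein genes made up 9 of the hosts and held 12 of the RNAs. For SCARNA2 and SNORA50C, no gene of the types considered as hosts spanned the whole RNA. SNORA14A, SNORA74B and SNORA7B lay in POR, ATP6V0E1 and RPL32P3, for which no strand was stated in the sources used. Some hosts had clusters of their own. FTO clusters outside every annotated small RNA gene were listed for 31 of the 46 protein-coding hosts (67.4%, 53 to 79.1%), beside 15.5% of all protein-coding genes counted in the same way. The highest of these clusters held 24 events and lay in TPT1, the host of SNORA31. TAF1D, KANSL2 and KPNA4, the hosts of SNORA18, SNORA2C and SCARNA7, had none. TRMT10A sites outside small RNA genes were listed for 17 of the 46 (37%, 24.5 to 51.4%), beside 13% of protein-coding genes. With sites on the small RNA itself included, 20 of the 46 (43.5%, 30.2 to 57.8%) had one, beside 13% again. The 3 added hosts were ATG16L1, KPNA4 and MRPL3, which hold SCARNA5, SCARNA7 and SNORA58. The expression of the hosts was not measured here, and its part in these shares was not tested.

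FTO clusters outside small RNA genes were also counted in the hosts of the RNAs with most events. NCAPD2, a condensin subunit gene that holds SCARNA10, had 5 such clusters with 13 events in all, against 241 events on SCARNA10. RPS2 had 5 with 29 events, RPL5 (SNORA66) had 4 with 16, and KHDC4 had 5 with 13. RPSA had 6 clusters with 29 events, RPL27A had 1 with 12, RCC1 had 2 with 8, SNHG3 had 3 with 9 and SNHG12 had 1 with 2.

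In these genes, picked because their members had the most events, the members together held more events than the gene outside small RNA genes. The opposite held in NCL, which holds SNORA75 and had 14 clusters with 41 events against 24, and in PRRC2A, which holds SNORA38 and had 12 with 32 against 22. CEP295 (SCARNA9) had 2 clusters with 11 events, SNHG15 (SNORA9) had 2 with 4, PHB2 (SCARNA12) had 3 with 8 and NSD2 (SCARNA22) had 4 with 8. Among the hosts of the RNAs with 4 clusters, TCP1 (SNORA20) had 5 with 13 events, IPO7 (SNORA23) had 4 with 8 and SLC25A3 (SNORA53) had 2 with 14. Hosts of RNAs with fewer events went both ways. MRPL3 had 3 clusters with 17 events against 2 on SNORA58, and TOMM20 had 18 with 64 against 11 on SNORA14B. No such cluster was listed for ATG16L1, EIF1AX (SCARNA9L), HAUS6 (SCARNA8), PPP1R8 (SCARNA1), TIPIN (SCARNA14), SEC14L1 and SNHG20 (SCARNA16), SNHG22 (SCARNA17) or USP32 (SCARNA20). Among the hosts named in this paragraph and the last, TRMT10A sites outside small RNA genes were most numerous in SLC25A3, with 7 of heights up to 27. NCL, NCAPD2 and RCC1 had 4 each. Of the other hosts, MATR3 (SNORA74A) had 10 with heights up to 30, SRCAP (SNORA30) had 8 up to 26, and CNOT1 had 4 up to 36.

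TRMT10A sites lay on 6 of the 211 member genes (2.84%), beside 5.33% of all genes and 0.276% of SNORD genes. These shares are not strictly alike. The share of all genes counts whole spans with introns, and the strand was matched only for members with an FTO cluster. The 5 small Cajal body RNAs among them are SCARNA5, SCARNA7, SCARNA10, SCARNA12 and SCARNA13, and the other is SNORA58. Site heights, which are the authors' peak heights in the pooled list, ranged from 17 to 49, against a median of 20 over all 5650 sites. SNORA58 had the highest, 49, and 4.25% of all sites in the list were at least as high. SCARNA7 and SCARNA13 had heights of 29, SCARNA12 of 27, SCARNA10 of 25 and SCARNA5 of 17.

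The sites lay in the middle of their RNAs, at relative positions between 0.44 and 0.64. On SNORA58 the site spanned bases 118 to 120 of 236, on SCARNA12 bases 118 to 120 of 270, and on SCARNA13 (U93) bases 123 to 126 of 275. On SCARNA5 (U87) it spanned bases 137 to 144 of 278, on SCARNA7 (U90) bases 190 to 199 of 330, and on SCARNA10 bases 210 to 212 of 330. All 6 RNAs have at least 236 bases, longer than the median member with FTO clusters, at 135. FTO clusters were present on 5 of the 6, and no FTO cluster was listed for SCARNA13. The site shared bases with an FTO cluster only in SCARNA12, where that cluster held 2 events. Elsewhere the nearest FTO cluster was 22 bases away in SCARNA7, 61 in SCARNA10, 73 in SCARNA5 and 79 in SNORA58. The RNA with the highest TRMT10A site, SNORA58, had 2 FTO events, and the RNA with the most FTO events, SCARNA10, had a TRMT10A site of height 25.

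**Figure D5:**
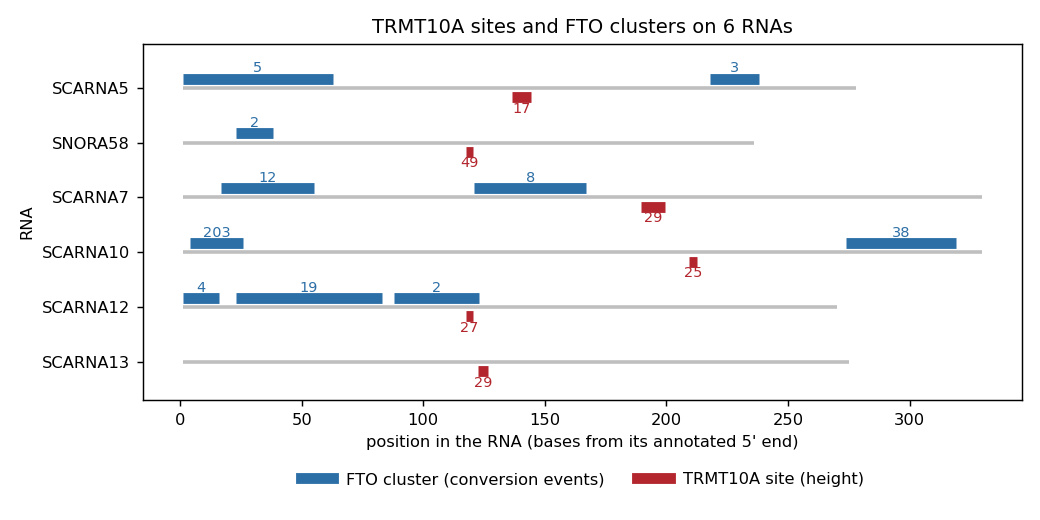
The 6 RNAs with a TRMT10A site, drawn to scale in bases from the annotated 5′ end. Blue bars above the lines are FTO clusters with their conversion events, and red bars below are TRMT10A sites with the authors' peak height. The red bars sit near the middle of each line, between the FTO clusters of SCARNA5 and of SCARNA10.

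The gene name printed beside a TRMT10A site is that of the nearest transcript start. A member was named in this way for 66 sites, of which 6 lay on the member, and the other 60 lay at a median of 3908 bases from its start. The authors scored a site separately against each gene that contains it. Against the small RNA itself the deposited p-value was 1.38e-10 for SNORA58, 0.000173 for SCARNA7 and 0.00184 for SCARNA13. Against the other gene listed it was 1e-100 for SNORA58 and SCARNA7 and 3.77e-10 for SCARNA13. SCARNA5, SCARNA10 and SCARNA12 were listed against the host gene only, with deposited p-values of 1.25e-08, 1.13e-08 and 1e-100. The site on SCARNA13 was also listed against SNHG10, whose gene number its peak name carries.

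No row of the differential m6A table carried a member's name or had an exon block on a member (0 of 2023 rows). The m6A libraries were made from polyadenylated RNA, and these small RNAs are not polyadenylated in their mature form. A row reached across a member in its intron in 3 cases, SNORA75 in NCL, SNORA40C in AMD1 and SNORA70G in RAP1B. The nearest block was 73 bases from SNORA75, whose clusters held 11 and 13 FTO events.

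Among the protein-coding hosts, 11 of 46 (23.9%, 13.9 to 37.9%) had rows in the differential m6A table, beside 8.56% of protein-coding genes. The sign of its fold change is not defined in the sources used here. In the authors' deposited table, 9 of the 13 rows of these hosts had negative and 4 positive log2 fold changes, beside 33.5% negative among all 2023 rows. For KANSL2 the authors' deposited table gives -1.21 (adjusted p 0.00589) and for TAF1D -0.44 (0.0234). For NCL, which encodes nucleolin, the authors' deposited table gives rows of -0.157 (2.69e-05) and 0.489 (1e-106). For KHDC4, host of SCARNA4, the authors' deposited table gives -0.491 (0.0155). For IPO7 (SNORA23) it is -0.811 (3.98e-07) and for HAUS6 (SCARNA8) -0.332 (0.00525) in the authors' deposited table. For PRRC2A, host of SNORA38, the authors' deposited table gives 0.597 (2.51e-22), and for PHB2, host of SCARNA12, 0.331 (1.1e-07). For NSD2, host of SCARNA22, the authors' deposited table gives -1.4 (0.0302) and 0.486 (0.000759). NCAPD2 and RPS2, the hosts of SCARNA10 and SNORA64, had no row.

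The proteins that bind or mature these RNAs were examined through a list of 10 genes. FTO clusters were listed for 6 of them, all with 4 events or fewer in total. DKC1, the pseudouridine synthase dyskerin, had 2 clusters with 4 events, and NHP2, another core protein, had 1 cluster with 4. NOP10 (2 events), the assembly factor SHQ1 (3), the Cajal body protein COIL (3) and the telomerase RNA TERC (3), itself an H/ACA RNA, had 1 cluster each. TRMT10A sites were listed in NHP2, with heights up to 30, and in WRAP53, the Cajal body targeting factor, with a height of 21. The authors' deposited table holds 1 m6A row among the 10, for DKC1, with a log2 fold change of -0.317 (adjusted p 0.0234). GAR1, NAF1 and TERT appeared in none of the 3 tables. Among all protein-coding genes, the type of most of these 10, the shares were 15.5% for FTO clusters, 13% for TRMT10A sites and 8.56% for m6A rows. Over all genes, noncoding ones included, they were 6.01% for FTO clusters, 5.33% for TRMT10A sites in the span and 2.96% for m6A rows.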

How the data were processed

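The authors deposited 3 tables on hg38. Per the file headers, each FTO cluster has a count of conversion events. The kind of conversion and the cluster caller are not given in the sources used here. For TRMT10A, the table was annotated with HOMER from a pooled list of significant sites, per the file headers, and the deposited score is the peak height, with a p-value in the peak name. The m6A table lists differential peaks with a log2 fold change, a log10 adjusted p and a fold enrichment (ratio) of pulldown over input, which the authors computed. DESeq2 is named in the submitters' processing notes, without a role. It was not run here.

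Clusters were counted once per position and placed on RNAs through gene spans of the RefSeq table of GRCh38.p14, in which all 74 names were found, counting bases along the strand. Placement was tested on simulated clusters. A TRMT10A site or m6A block had to share at least 1 base with the RNA. A host is a gene whose span holds the whole RNA on the same strand. Genes of small RNA types, and those typed as antisense, miscellaneous or plain noncoding RNA, were not considered as hosts. Clusters and sites of hosts were counted outside small RNA genes of at most 500 bases, on either strand. Shares carry Wilson intervals, sums exact Poisson intervals, and medians order-statistic intervals, all at 95%. No test was made, since no table separates replicates. Scripts ran in Python 3.11.15 with pandas 2.3.3, numpy 2.4.6, matplotlib 3.10.9 and scipy 1.17.1.

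Values are given for the 20 RNAs with the most events, the 5 with the most clusters, every RNA with a TRMT10A site and every SCARNA with a cluster, with their hosts. The other RNAs and the hosts named with them were added after their values were seen, as were the sorting of SCARNA by box type and the length limit for short SNORA RNAs. Members and lists were chosen with earlier results of these data known. Planned motif searches were not run, since no genome sequence was used here.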

Additional observations from a re-analysis of the deposited data

How the results depend on the processing

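Of 33 alternative values, 22 stayed within the interval of the reported value, or within 1.5 times of a reported count. With at least 5 conversion events per cluster, 69 clusters under 45 names remained, the median was 10 events and 20.3% of centres lay past the midpoint. With at least 10 events, 35 clusters under 23 names remained, with a median of 20 events. Summed per RNA the median was 8 events. Measured at the 5′ end of the cluster the median position was 0.19, and weighted by conversion events it was 0.23. Taking the gene printed beside each TRMT10A site gave 66 sites. In every setting the median position stayed between 0.19 and 0.28. A share past the midpoint weighted by events and without the 3 RNAs with the most events, an alternative chosen after seeing the data, was 23.6%. The 3 together do not set the share, but they pull it in opposite directions. SNORA64 had 91 of its 102 events on the 3′ side, whereas SCARNA10 and SNORA18 had 203 and 188 on the 5′ side. Members found by position gave 149 clusters on 81 RNAs. No paired analysis was possible because the tables hold no values per replicate. The FTO list comes from 1 library, so no value here has replicate error. A small number of events, as in the 31 clusters with 2, limits the precision of single clusters, and the absence of a cluster says only that none was listed.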
